A study of Mus musculus with 4 samples.

Results

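Hmga2 encodes an architectural chromatin protein that binds the minor groove of AT-rich DNA through its AT-hooks. It is known for high expression in embryonic tissue and in stem and progenitor cells and for low expression in most adult tissues. Its mRNA is a textbook target of the let-7 family of microRNAs, whose maturation the RNA-binding proteins LIN28A and LIN28B block, and its protein is known to raise transcription of Igf2bp2. Hmga2 was chosen by its variance between the nuclei of these same libraries, in which it ranked 2 of all genes by standardized variance. Its own differences are therefore given as values, and no test of Hmga2 is read. It is 1 gene of 40091 in the count tables.

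Single-nucleus RNA-seq was performed on thalamus of wild-type C57BL6 mice, 7 to 8 weeks old, taken 7 days after microinjection into the right ventral posteromedial and posterolateral nuclei. In the COL group the injection held 0.01 U of Coll IV, a collagenase that breaks down the vessel wall and causes bleeding, in 10 nl, and in the NS group it held saline. Each group had 2 libraries, and each library pooled 3 mice, so that the spread between single mice was not measured. After a filter on genes and mitochondrial UMIs, 32291 nuclei were kept, with 68723738 to 77546840 UMIs (unique molecular identifiers, each standing for a captured RNA molecule) per library. A nucleus with 3 or more UMIs of Hmga2 is called an Hmga2 nucleus below, and 88 of the 32291 nuclei met this rule. The libraries shared 8 to 31 cell barcodes per pair. The barcode of 1 Hmga2 nucleus of COL replicate 2 also occurred in NS replicate 1, and none was an Hmga2 nucleus in both.

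Hmga2 (ENSMUSG00000056758) lies at chr10:120361275-120476469 on the minus strand of mm10. In GENCODE M21 its coding transcript Hmga2-201 has 5 exons and Hmga2-203 has 6, and both end in the same exon, which holds the whole 3′ untranslated region (3′UTR). The 3′UTR is 2977 bases long in Hmga2-201 and 3014 in Hmga2-203. The libraries were made with a 3′ end kit, so this exon is the part of the mRNA nearest to the captured end. The seed of let-7, bases 2 to 8 of the mature microRNA, is the stretch that pairs with target mRNAs. It is shown here in capitals for 4 family members from RefSeq (GRCm38.p6), to be read against the sites in Hmga2.
let-7a-5p: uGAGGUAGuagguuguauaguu
let-7g-5p: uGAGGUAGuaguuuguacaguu
let-7i-5p: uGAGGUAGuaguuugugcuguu
miR-98-5p: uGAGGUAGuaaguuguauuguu

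These members have the same seed and differ only behind it. The let-7a-5p copy lies at chr13:48538239-48538260 (minus strand), let-7g-5p at chr9:106178846-106178867 (plus strand), let-7i-5p at chr10:122985698-122985719 (minus strand) and miR-98-5p at chrX:151913229-151913250 (plus strand). In all, 11 mature microRNAs of the table held the seed. The complement of the seed, CTACCTC, was searched on the transcript strand of the 3′UTR and occurred 4 times. Each site is printed in the direction of the mRNA with the matching letters in capitals.
chr10:120364224-120364246: gccgacattcaatttCTACCTCa
chr10:120362987-120363009: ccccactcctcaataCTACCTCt
chr10:120362549-120362571: ctgatttgcaaggaaCTACCTCc
chr10:120361691-120361713: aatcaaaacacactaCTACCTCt

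The 4 sites begin at positions 21, 1258, 1696 and 2554 of the Hmga2-201 3′UTR, and the first is followed by an A. Of 2246 genes whose longest 3′UTR was within 20% of this length, 349 (15.5%) held the 7 letters at least once and 3, Hmga2 among them, held them 4 or more times. MicroRNAs were not measured in these libraries, so the match describes the gene and not its regulation here.

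Hmga2 nuclei were rare in NS and less rare in COL. NS replicate 1 had 5 of 9673 nuclei (0.0517%, 95% exact Clopper-Pearson interval 0.0168% to 0.121%) and NS replicate 2 had 3 of 10422 (0.0288%, 0.00594% to 0.0841%). COL replicate 1 had 37 of 5931 (0.624%, 0.440% to 0.859%) and COL replicate 2 had 43 of 6265 (0.686%, 0.497% to 0.923%). Both COL libraries lay above both NS libraries. The intervals account for counting alone, nuclei are not replicates of a condition, and these values are a description, since Hmga2 was chosen on the same nuclei. The kept nuclei were deeper in COL, with median totals of 8664 and 8691 UMIs against 6489 and 4649 in NS. With every nucleus thinned to 2000 UMIs the shares were 0.442% and 0.321% in COL, against 0 of 9265 nuclei and 1 of 9596 in NS, leaving out 408 and 826 shallower nuclei of NS and 42 and 40 of COL.

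The number of UMIs per nucleus also differed. Hmga2 nuclei of NS held 3 to 5 UMIs in replicate 1 and 3 to 6 in replicate 2. Those of COL held 3 to 98 in replicate 1 (median 22) and 3 to 162 in replicate 2 (median 10). Thus 46 nuclei of COL, 24 and 22 per library, reached 10 UMIs and no nucleus of NS did. At the threshold itself, 3, 5, 2 and 1 nuclei held exactly 3 UMIs in COL replicates 1 and 2 and NS replicates 1 and 2, and 16, 16, 7 and 0 just outside it held 2. Of all Hmga2 UMIs, 85.1% of 1339 and 85.8% of 1792 lay in Hmga2 nuclei in COL, against 18.5% of 108 and 30.2% of 43 in NS.

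**Figure D1:**
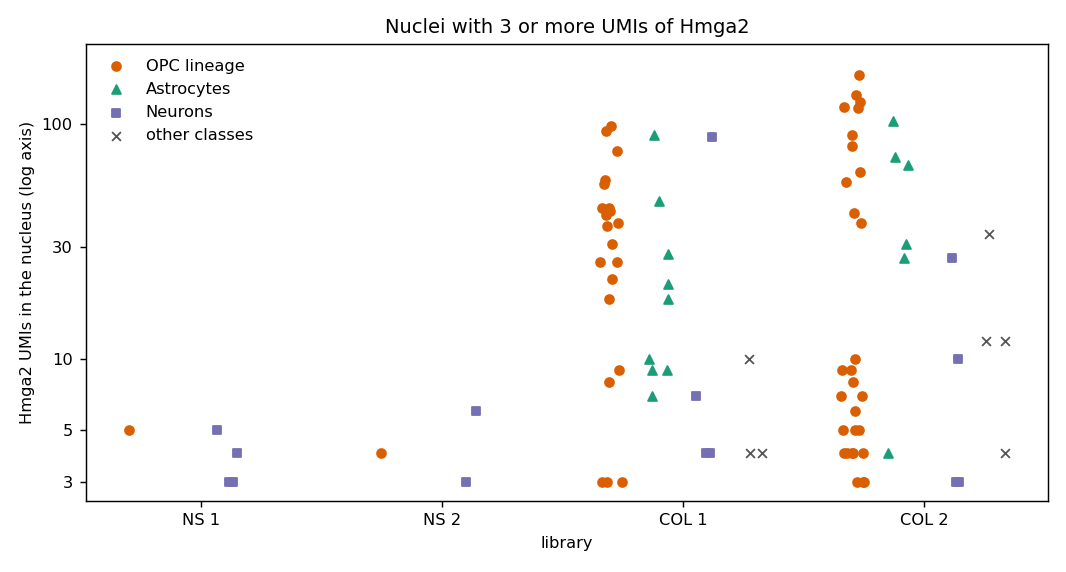
Hmga2 UMIs (log axis) in each of the 88 nuclei with 3 or more, by library on the horizontal axis. Each point is a nucleus and its marker gives the class. The nuclei of NS end at 6 UMIs, while those of COL reach 98 and 162, most of them in the OPC lineage.

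In COL, most Hmga2 nuclei belonged to the oligodendrocyte precursor (OPC) lineage, the dividing glial progenitors of the adult brain and the committed precursors that arise from them. This class held 50 of the 80 nuclei of COL and 2 of the 8 of NS, where the other 6 were neurons. Over both groups it held 52 of 88 (59.1%), and it made up 4.2% of all kept nuclei. A further 15 were astrocytes, the glia that support synapses and form scars, 14 were neurons, 4 lay in clusters of mixed nuclei, 1 was a macrophage and 2 lay in an unnamed cluster. None of the 8812 oligodendrocytes, 1683 microglia, 172 vascular nuclei or 146 T and NK cells was an Hmga2 nucleus.

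In the OPC lineage, 21 of 216 nuclei of COL replicate 1 (9.72%, 6.12% to 14.5%) and 29 of 308 of COL replicate 2 (9.42%, 6.40% to 13.2%) were Hmga2 nuclei. In NS there was 1 of 400 in replicate 1 (0.25%, 0.00633% to 1.38%) and 1 of 431 in replicate 2 (0.232%, 0.00587% to 1.29%). The level over the class was 459 and 426 CPM (UMIs of the gene per 1000000 UMIs of the class) in COL against 12.8 and 4.37 CPM in NS. The COL libraries differed little from each other and lay far above NS. With the nuclei thinned to 2000 UMIs the shares were 7.41% and 3.90% in COL and 0 of 397 and 0 of 428 in NS. Different clusters made up the class in the 2 groups. Cluster 12 held 214 and 298 of the COL nuclei and 92 and 113 of the NS nuclei, and cluster 15 held 2 and 10 of COL and 308 and 318 of NS. All 50 COL Hmga2 nuclei of the class lay in cluster 12. The Hmga2 nucleus of NS replicate 2 lay there too, yet carried 14 UMIs of endothelial markers, 21 of dividing cell genes and 1 of OPC markers, so its class goes against its markers.

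In astrocytes, 9 of 200 nuclei (4.5%, 2.08% to 8.37%) and 6 of 273 (2.2%, 0.811% to 4.72%) of COL were Hmga2 nuclei. NS had 0 of 1195, which allows a share of up to 0.251%, and 0 of 1059, which allows up to 0.283%. The level was 197 and 163 CPM in COL and 0.852 and 0 CPM in NS. All 15 of these nuclei lay in cluster 18, which held 198 and 270 of the COL astrocytes and only 32 and 8 of the NS astrocytes. Their astrocyte markers summed to 1635 and 2975 CPM, against 4627 and 4884 CPM in the astrocytes of the same libraries without Hmga2. The class follows the cluster, and in most of these nuclei other markers outnumbered astrocyte markers. Neuronal markers had medians of 29 and 23.5 UMIs in them, against 11 and 20.5 for astrocyte markers. The neuronal sums were 3496 and 2385 CPM, against 4483 and 3783 CPM in the astrocytes without Hmga2. Other examples are OPC markers at 6 against 2, 20 against 17 and 11 against 9 UMIs, and oligodendrocyte markers at 15 against 5. In neurons the shares were far lower, at 4 of 2924 (0.137%) and 4 of 2689 (0.149%) in COL and 4 of 5028 (0.0796%) and 2 of 4375 (0.0457%) in NS, and their counting intervals overlapped. The neuronal nuclei of COL included 1 with 88 UMIs.

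Free RNA can place UMIs in nuclei that do not express a gene, so shares with at least 1 UMI are given for classes of unlike depth. At least 1 UMI of Hmga2 was found in 1.67% and 2.77% of COL oligodendrocytes (median totals of 5210 and 5904 UMIs) and in 0.236% and 0.0568% of NS oligodendrocytes (3163 and 2935 UMIs). In the OPC lineage, 17.1% and 18.2% of COL nuclei (7470 and 7961 UMIs) and 5.25% and 1.39% of NS nuclei (4892 and 4366 UMIs) held at least 1. No oligodendrocyte of any library held more than 2, so the rule of 3 UMIs left that class empty. Neurons were deeper, and 3.80% and 4.65% of COL neurons (15094 and 14937 UMIs) held at least 1. In NS neurons it was 0.955% and 0.503% (9717 and 9078 UMIs). The rule left 4 neurons in each COL library. The part of free RNA in these shares was not tested. Across classes, the COL level was 459 and 426 CPM in the OPC lineage, 197 and 163 in astrocytes and 107 and 27.6 in the unnamed cluster. The remaining classes lay between 0 and 16.2 CPM. Among them neurons (4.17 and 3.84 CPM), oligodendrocytes (3.19 and 4.44 CPM) and microglia (2.12 and 4.67 CPM) overlapped, and macrophages (5.30 and 5.53 CPM) lay just above. More nuclei with Hmga2 and more Hmga2 per nucleus both raise such a level.

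**Figure D2:**
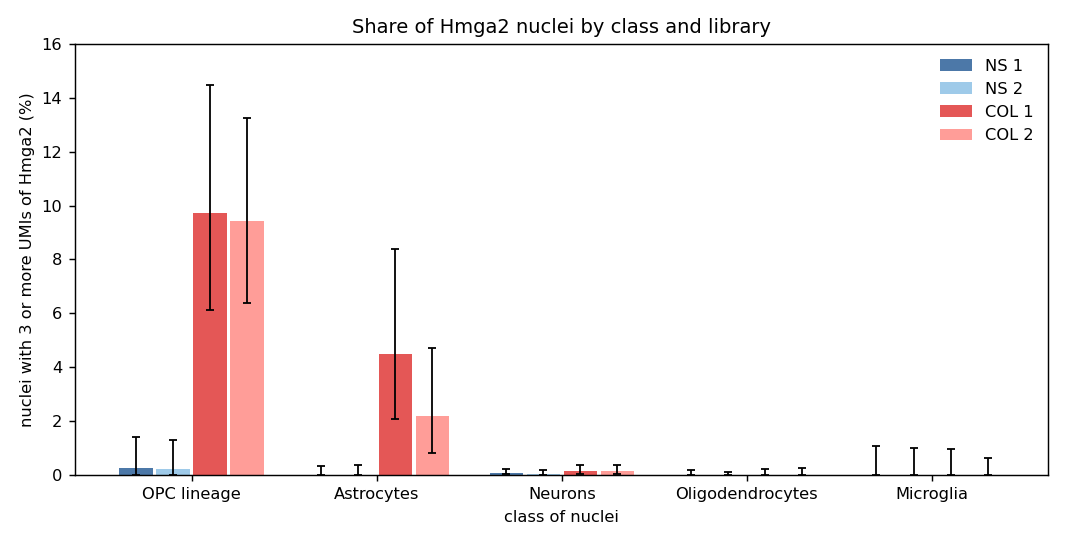
Share of nuclei with 3 or more UMIs of Hmga2 (percent) by class and library. Bars are shares and lines are exact 95% intervals for counting error. The OPC lineage of COL stands at 9.72% and 9.42%, astrocytes of COL at 4.5% and 2.2%, and the oligodendrocyte and microglia bars are at 0 in every library.

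Among the Hmga2 nuclei of the OPC lineage in COL, the UMIs of Hmga2 spread widely, and a division into ranges was not tested. COL replicate 1 had 3, 3, 3, 8 and 9 UMIs in 5 nuclei and 18 to 98 in the other 16. COL replicate 2 had 3 to 10 in 18 nuclei and 38 to 162 in the other 11, with none between 10 and 38. Summed over the OPC markers Pdgfra, Cspg4, Vcan, Ptprz1 and Lhfpl3, these nuclei held a median of 100 UMIs (range 4 to 270) in replicate 1 and 106 (9 to 325) in replicate 2. In 3 of them oligodendrocyte markers outnumbered OPC markers, with 72, 84 and 190 UMIs against 4, 9 and 13. Neuronal markers had medians of 30 (21 to 239) and 28 (14 to 719) UMIs per library. In some nuclei they outnumbered OPC markers, as with 719 against 56. This held for the nuclei with 133 and 162 Hmga2 UMIs as well, at 262 against 106 and 62 against 60. Fibroblast markers were absent from all but 2 of the 50 nuclei, and pericyte markers from all but 3. A single nucleus of COL replicate 2, the largest with 51876 UMIs and called a doublet, held 175 fibroblast marker UMIs. In all, 4 of the 50 were called doublets. Genes of dividing cells were found in 28 of the 50, with 13 of 21 in replicate 1 and 15 of 29 in replicate 2. Hmga2 nuclei were deeper than the rest of the class, with median totals of 10260 and 10322 UMIs against 7457 and 7660 in nuclei with no Hmga2 UMI. With these nuclei thinned to 2000 UMIs, 107 genes were higher and 140 lower of 4044 tested by edgeR in the comparison that follows.

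The next comparison asked which other genes differed between Hmga2 nuclei and nuclei with no Hmga2 UMI within the OPC lineage of the same COL library. Counts were summed over 21 and 179 nuclei of COL replicate 1 and over 29 and 252 of COL replicate 2, with the library as a block. This leaves 1 residual degree of freedom, so the p-values lean on the spread shared across genes. In the quasi-likelihood test of edgeR, adjusted after Benjamini and Hochberg, 621 of 9797 genes (6.34%) were higher in Hmga2 nuclei and 568 (5.8%) were lower. DESeq2 called 95 (1.77%) and 135 (2.52%) of the 5353 genes to which it gave an adjusted p. The edgeR calls held 94 of these 95 and all 135. The filter on low counts asked for 11.3 CPM in 2 of the 4 sums. Of the genes tested, 340 reached it in the Hmga2 nuclei alone (128 called, all higher) and 241 in the other nuclei alone (67 called, all lower), where the filter itself favours that direction, so calls in the gene lists are counted below over genes that reached it on both sides. Over all such genes 493 (of 9216) were higher and 501 lower. NS had 1 Hmga2 nucleus per library in this class and was not tested.

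The smallest adjusted p belonged to Tnc, which encodes tenascin C, an extracellular matrix glycoprotein of developing and injured tissue. Tnc stood at 1020 and 1117 CPM in the Hmga2 nuclei of COL replicates 1 and 2 and at 20.8 and 20.9 CPM in nuclei with no Hmga2 UMI. In the whole class of NS it stood at 9.12 and 5.34 CPM. The summed Hmga2 nuclei lay far above the others in both libraries, with a log2 fold change of 5.57 ± 0.23 (SE, edgeR adjusted p = 6.2e-122). A Tnc UMI was present in 27 of the 50 Hmga2 nuclei, and 1 nucleus held 29.2% of the Tnc UMIs. Its presence differed with the amount of Hmga2, with Tnc in 23 of 28 nuclei with 10 or more Hmga2 UMIs (1639 CPM) and in 4 of 22 nuclei with 3 to 9 (215 CPM). These sets differ in depth (median totals of 12047 and 8486 UMIs) and in library, since 12 of the 28 and 17 of the 22 came from COL replicate 2.

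Trabd2b, which encodes a metalloprotease that inactivates Wnt proteins, stood at 96.5 and 187 CPM in Hmga2 nuclei against 0 and 5.23 CPM without Hmga2 (log2 fold change 5.49 ± 0.41). NS had 0.456 and 0 CPM. It was found in 11 of the 50 nuclei, so most Hmga2 nuclei showed none at this depth.

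Of the 10 genes with the largest increases, all but Tnc reached the count minimum in the Hmga2 nuclei alone, and their fold changes are given as a description. All 10 were also called by edgeR with no filter on low counts, a refit of the counts that chose them and so no separate support. The other genes with the largest increases included enzymes, a growth factor and RNAs of unknown function. Aldh1a3, a retinoic acid synthesizing enzyme, rose by 5.04 ± 0.58 on the log2 scale (62.9 and 47.4 against 0 and 2.38 CPM). Arhgap28, a GTPase activating protein, rose by 4.96 ± 0.50 (75.5 and 84.3 against 3.58 and 1.43 CPM). Adamts14, a procollagen peptidase, rose by 4.84 ± 0.59 and Gdnf, a neurotrophic factor, by 4.75 ± 0.59 (33.6 and 52.7 against 2.15 and 0.95 CPM). These genes were each found in 13 to 19 of the 50 nuclei. Ptgs2, the inducible cyclooxygenase, was called as well, but its 16 UMIs came from 3 nuclei and 75.0% of them from 1, against 2 UMIs in the nuclei without Hmga2 (ratio 45.3, counting interval 10.7 to 406).

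The remaining 3 were noncoding. The gene 1700006J14Rik (chr10:120364157-120384336, plus strand) is antisense to Hmga2 and overlaps its 3′ end. It had 15 UMIs in Hmga2 nuclei, 5 and 10 per library, and 0 in nuclei without Hmga2. Against the floor of 3 UMIs over those nuclei it was 28.3-fold higher, and the lower limit of its counting interval was 20.3-fold. AL805899.1, a lincRNA at chr4:88909855-88938521 that overlaps Mir31, had 67 UMIs against 2 (ratio 190, counting interval 50.5 to 1599). Of the 67, 58 came from COL replicate 2, and 1 nucleus held 34.3%. The transcript 8030451A03Rik, which overlaps Tnc on the opposite strand, rose by 5.69 ± 0.56 (46.2 and 108 against 0 and 2.38 CPM). Whether counting used the strand is not given in the sources used here, so reads of 1700006J14Rik and Hmga2, and of 8030451A03Rik and Tnc, cannot be told apart. On the same counts, DESeq2 gave an adjusted p to 5 of these 10 genes (Tnc, Trabd2b, Arhgap28, AL805899.1 and 8030451A03Rik) and called all of them.

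Genes of committed oligodendrocyte precursors, the step at which an OPC stops dividing and starts to differentiate, were lower in Hmga2 nuclei. All 5 markers that reached the count minimum on both sides were called (median log2 fold change -2.58, against -0.0088 for all such genes). The antisense RNA 9630013A20Rik stood at 33.6 and 7.91 CPM against 265 and 223 CPM and fell by 3.83 ± 0.34 on the log2 scale. It overlaps Pcdh17 on the opposite strand, and whether counting used the strand is not given. Enpp6, a choline phosphodiesterase of newly forming oligodendrocytes, fell by 3.71 ± 0.39 (21.0 and 7.91 against 172 and 153 CPM), and Gpr17, a receptor of the committed stage, by 2.58 ± 0.39. Bcas1 fell by 1.52 ± 0.18. Bmp4, which reached it in the other nuclei alone, had 1 UMI in Hmga2 nuclei and 103 in the others (ratio of the others to Hmga2 nuclei 18.2, counting interval 3.19 to 725). DESeq2 called all 5 of these markers to which it gave an adjusted p.

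No COL Hmga2 nucleus of the class had more than 4 UMIs summed over 9630013A20Rik, Bmp4, Enpp6 and Gpr17. A fit that left out every nucleus with 5 or more of these UMIs, added after the data were seen, compared the Hmga2 nuclei with 155 and 191 nuclei in place of 179 and 252. There 9630013A20Rik changed by -0.79 (edgeR adjusted p = 0.394) and Enpp6 by 0.02 (0.993), both genes the selection itself used. Tnc remained higher at 5.27, Trabd2b at 5.23 and Igf2bp2 at 2.89, and Bcas1, which the selection did not use, remained lower at -0.60 (edgeR adjusted p = 0.0070). The counts were then 518 genes higher and 474 lower.

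Mature oligodendrocyte genes were called lower in 7 of 7 tested (median -1.11). Mbp stood at 210 and 382 CPM against 760 and 679 CPM (-1.38 ± 0.19), and St18, a transcription factor, fell by 1.71 ± 0.19. DESeq2 called 3 of the 7. With committed precursors left out Mbp changed by -0.42 (edgeR adjusted p = 0.161), and with doublets removed Mog changed by -0.53 and Mobp by -0.29 with adjusted p of 0.433 and 0.640. At equal depth, thinned to 2000 UMIs, both turned direction, Mog to 0.35 and Mobp to 0.02 (edgeR adjusted p = 0.853 and 0.991), and Mag was at -0.53 (0.631). The other genes with the largest decreases had 0 or 1 UMI in the Hmga2 nuclei and reached the count minimum in the other nuclei alone. Kif19a, a kinesin, had 0 UMIs against 114 and was 6.71-fold lower with the 0 read as 3 counts. Read in this way, the lincRNA 6030407O03Rik was 5.83-fold lower, Fam189a2 3.00-fold, Acan, which encodes the proteoglycan aggrecan, 2.94-fold and Msl3 2.35-fold. These values leave out the counting error of the other nuclei. Itprid1 had 1 UMI against 130 (ratio of the others to Hmga2 nuclei 23.0, counting interval 4.05 to 913), and Gm43154 and Snx22 had 1 UMI against 83 and 82. With committed precursors left out, Kif19a, Msl3, Gm43154 and Bmp4 had too few counts to test. In that fit 6030407O03Rik, Fam189a2, Acan, Itprid1 and Snx22 were still called lower.

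**Figure D3:**
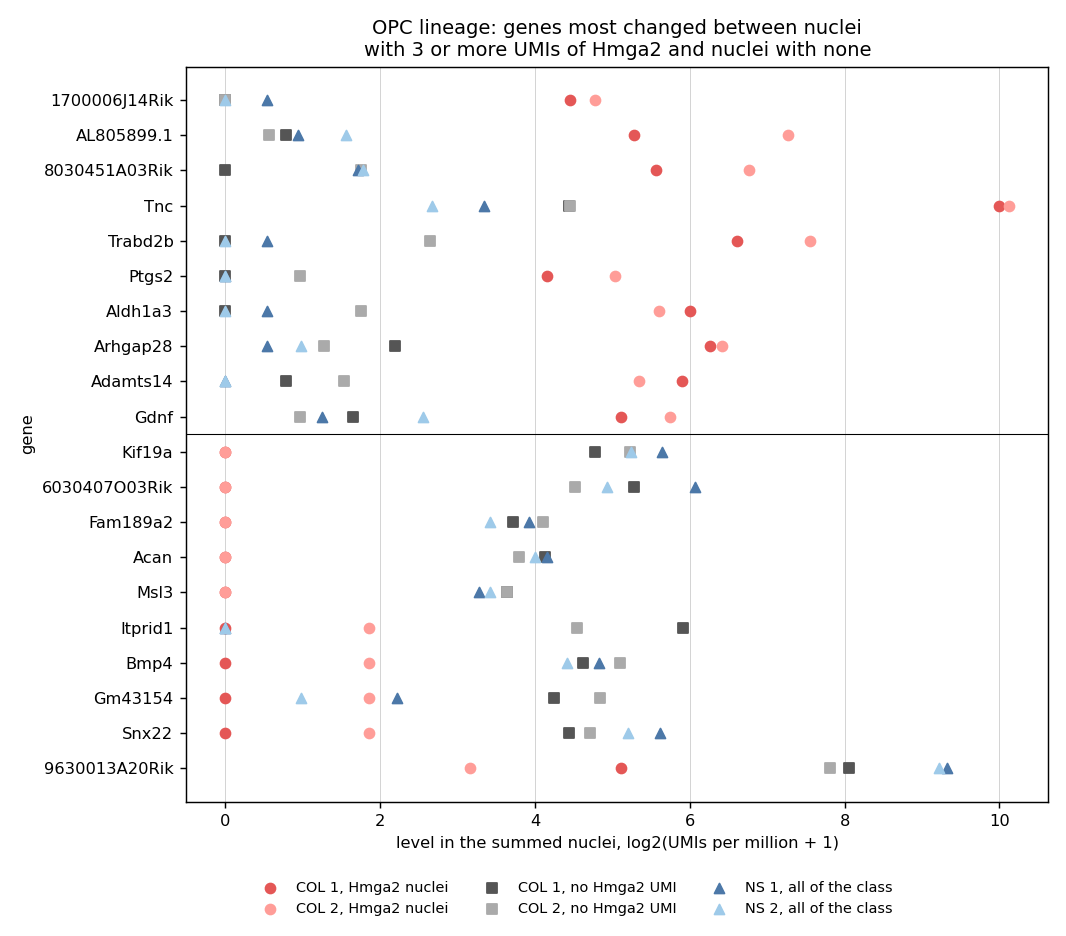
Level of the 10 genes with the largest increase (above the line) and the 10 with the largest decrease (below the line) in summed OPC lineage nuclei, as log2(CPM + 1). Circles are Hmga2 nuclei and squares are nuclei with no Hmga2 UMI of COL replicates 1 and 2, and triangles are all OPC lineage nuclei of each NS library. Tnc reaches 1020 and 1117 CPM in the Hmga2 nuclei, and Kif19a is at 0 in both.

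OPC markers were carried by both kinds of nuclei. Of 5 tested, 0 were higher and 2 were lower by edgeR, and DESeq2 called 0. Pdgfra, the PDGF receptor that defines OPCs, stood at 256 and 380 CPM in Hmga2 nuclei and 370 and 366 CPM in the others (log2 fold change -0.31 ± 0.20, edgeR adjusted p = 0.377). Cspg4, the NG2 proteoglycan, fell by 0.68 ± 0.22 and Vcan, the proteoglycan versican, by 0.61 ± 0.17. With the nucleus of 51876 UMIs left out, Cspg4 changed by -0.55 (edgeR adjusted p = 0.106) and Vcan by -0.53 (0.0624). With classes set by each nucleus's marker score all 3 changed sign, at 0.41 for Pdgfra, 0.07 for Cspg4 and 0.09 for Vcan, so no direction is given for them.

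All 6 tested genes of dividing cells had a higher estimate in Hmga2 nuclei, though not all were called. Of 5 that reached the count minimum on both sides, 4 were called by edgeR (median 1.34). Mki67, the proliferation marker, stood at 130 and 206 CPM against 46.6 and 40.4 CPM (1.88 ± 0.26), and Top2a at 210 and 203 against 99.6 and 80.3 (1.11 ± 0.23). Cdk1, which reached it in the Hmga2 nuclei alone, stood at 21.0 and 18.5 against 2.15 and 6.65 CPM (1.90 ± 0.60). Cenpf and Kif11 rose by 1.2 and 1.41, and Bub1 was at 1.34 ± 0.51 (edgeR adjusted p = 0.0609). DESeq2 called 1 of the 4 to which it gave an adjusted p, Mki67. The Cdk1 call was lost with 1, 5 or 10 UMIs as the threshold, with committed precursors left out, at resolution 1.2 and with no filter on low counts (edgeR adjusted p from 0.0501 to 0.463).

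Among LIN28, let-7 and IGF2BP genes, 0 of 5 that reached the count minimum on both sides, of 14 listed, were called by edgeR (median -0.41), and 1 had an unadjusted p under 0.05. Igf2bp2, an RNA-binding protein whose gene HMGA2 is known to activate, reached it in the Hmga2 nuclei alone. It stood at 67.1 and 73.8 CPM against 8.60 and 10.9 CPM, in 19 of the 50 nuclei, with a log2 fold change of 2.72 ± 0.41, given as a description. The fit with no filter on low counts (edgeR adjusted p = 1.8e-08) used the same counts and is no separate support. Both Hmga2 sides lay above both other sides. Lin28b, the block on let-7 maturation, stood at 21.0 and 13.2 CPM against 23.7 and 18.1 CPM (-0.42 ± 0.54, edgeR adjusted p = 0.751), and Igf1r, the IGF receptor, was at 0.38 ± 0.19 (0.209). Dicer1, which processes microRNA precursors, was at -0.41 ± 0.26 (0.382) and Igf2bp3 at -0.66 ± 0.62 (0.620).

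Of the genes tied to HMGA2 in tumours, development and the TGF-beta response, 9 reached the count minimum on both sides, and 1 of them was higher and 0 lower (median 0.24). The higher gene was Vim, the filament vimentin (25.2 and 58.0 against 5.73 and 15.2 CPM, 1.87 ± 0.46). The 4 others called reached it in the Hmga2 nuclei alone. Nes, the progenitor filament nestin, stood at 21.0 and 39.5 against 1.43 and 4.75 CPM, Cdkn1a, an inhibitor of the cell cycle, at 21.0 and 36.9 against 4.30 and 6.65, and E2f1, a driver of it, at 16.8 and 36.9 against 2.87 and 8.08. Fn1, the matrix protein fibronectin, was called at 3.47 ± 0.41, but 81.5% of its UMIs came from 1 nucleus, the one of 51876 UMIs. Without that nucleus it was at 1.31 (edgeR adjusted p = 0.175). Tgfbr2 and Smad3, a receptor and a mediator of TGF-beta, were at 1.22 ± 0.52 and 0.62 ± 0.26 (edgeR adjusted p = 0.115 and 0.108). DESeq2 called Fn1 alone of the 8 to which it gave an adjusted p.

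In the family of HMG proteins, 0 of 3 genes that reached the count minimum on both sides, of 9 listed, were called by edgeR, and 0 had an unadjusted p under 0.05. Hmgb2, an HMG box protein of dividing cells that reached it in the Hmga2 nuclei alone, stood at 12.6 and 29.0 CPM against 2.87 and 9.5 CPM (edgeR adjusted p = 0.243 with no filter on low counts). Hmgb1 was at 0.53 ± 0.31 (0.334). Of 44 genes that start within 1 Mb of Hmga2, 38 were in the count tables and 8 had enough counts to test. Msrb3, a methionine sulfoxide reductase, was the 1 lower gene among them (54.6 and 73.8 against 173 and 147 CPM, -1.37 ± 0.27). The 1 higher was the antisense 1700006J14Rik, which passed the filter on low counts through the Hmga2 nuclei alone and overlaps the gene that chose them, so nothing is read from its call. The median of the 6 that reached the minimum on both sides was -0.14. DESeq2 called 0 of the 3 neighbours and 0 of the 3 HMG genes to which it gave an adjusted p.

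Markers of other cells were counted beside these results. Microglial markers were called in 0 of 3, and their sums were 147 and 103 CPM in Hmga2 nuclei against 91.7 and 139 CPM. At an unadjusted p under 0.05 the count by edgeR was also 0, and DESeq2 called 0 of 1. Astrocyte markers were called in 1 of 5, the glutamate transporter gene Slc1a2, which was lower (-0.63 ± 0.21), and Gfap stood at 37.8 and 21.1 against 12.2 and 11.9 CPM (1.10 ± 0.51, edgeR adjusted p = 0.160). The astrocyte marker sums were 457 and 395 against 419 and 482 CPM. Of 6 neuronal markers Celf4 was higher at 0.72 and Snap25 lower at -0.63, and Celf4 reversed to -0.18 with doublets removed. DESeq2 called 0 of the 6 neuronal markers and 0 of the 2 astrocyte markers to which it gave an adjusted p. The endothelial marker Flt1, which reached the count minimum in the Hmga2 nuclei alone, was at 3.86 ± 0.72, with 29.4 and 13.2 against 0.717 and 1.43 CPM in 8 of the 50 nuclei, and the 7 endothelial markers summed to 33.6 and 36.9 against 5.02 and 11.4 CPM. No fibroblast or pericyte marker passed edgeR's filter on low counts, and DESeq2 gave an adjusted p to 1 fibroblast marker, which it did not call. The part of these other cells in the differences was not tested.

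**Figure D4:**
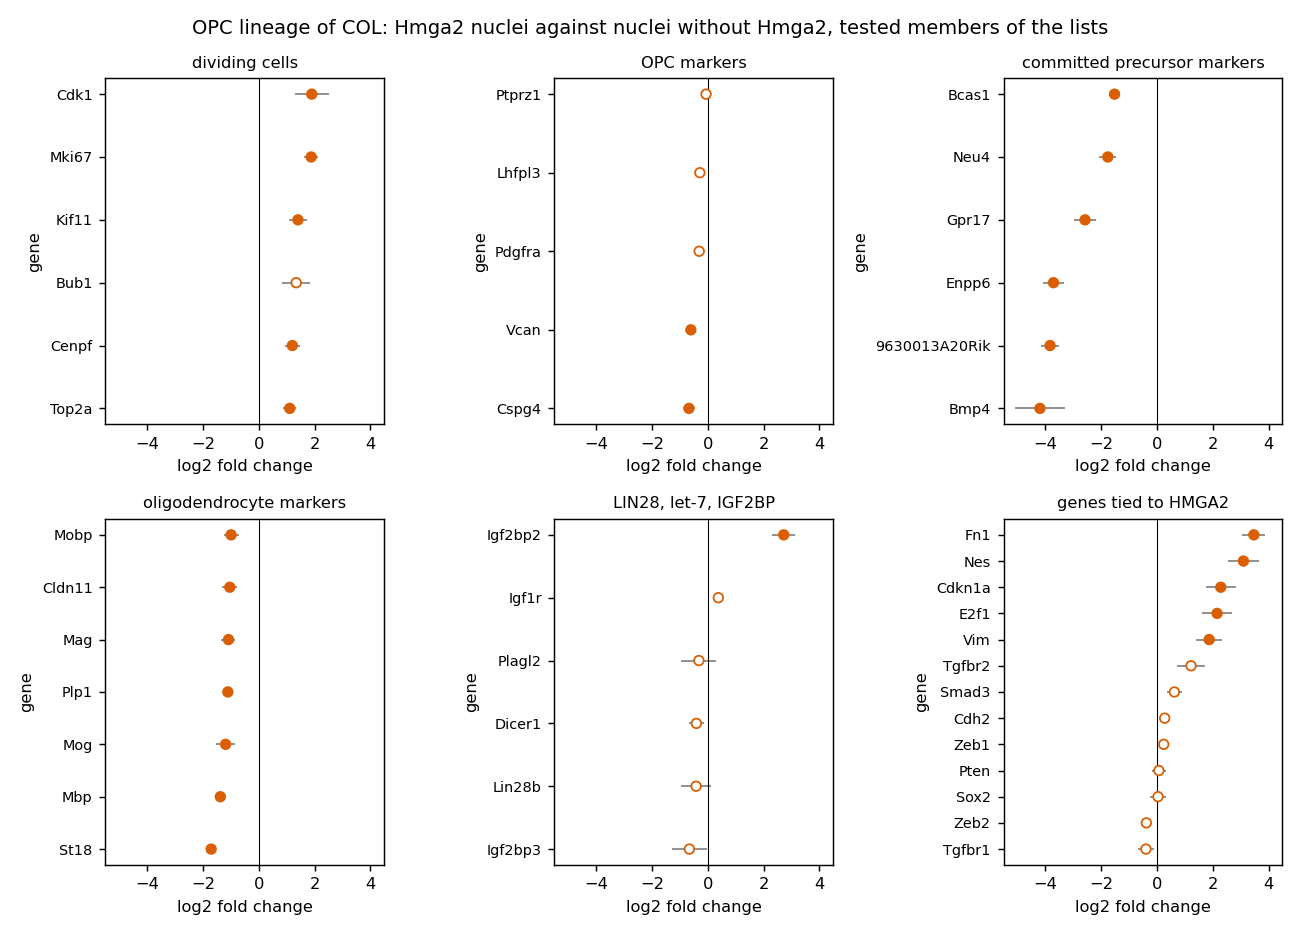
Log2 fold change of Hmga2 nuclei against nuclei with no Hmga2 UMI in the OPC lineage of COL, for the tested members of 6 gene lists. Points are edgeR estimates, lines are standard errors, and filled points passed an adjusted p of 0.05. Dividing cell genes lie right of 0 with 5 of 6 filled, committed precursor genes lie left of 0 with 6 of 6 filled, and Igf2bp2 at 2.72 is the 1 filled point of the let-7 list, and of these Cdk1, Bmp4 and Igf2bp2 reached the count minimum on a single side.

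The same genes were then followed over the whole OPC lineage, COL against NS, with 2 libraries per group. By edgeR's quasi-likelihood test 1072 of 13372 genes (8.02%) were higher in COL and 1326 (9.92%) were lower, and by DESeq2 521 (3.9%) and 474 (3.55%) of 13370. Hmga2 was not left out of these fits and counts among the genes higher by edgeR, but its own call is not read. Tnc stood at 159 and 178 CPM in COL and 9.12 and 5.34 CPM in NS and rose by 4.55 ± 0.22 (edgeR adjusted p = 1.1e-06). Trabd2b stood at 14.9 and 38.6 against 0.456 and 0 CPM. The count minimum was 4.7 CPM in 2 libraries, and 401 genes reached it in COL alone and 539 in NS alone, Trabd2b among the former. Of the other genes with the largest changes in Hmga2 nuclei, several were not called. These were Gdnf (1.34, edgeR adjusted p = 0.118), 6030407O03Rik (0.0838), Acan (0.398), Fam189a2 (0.836), Msl3 (0.940) and Bmp4 (0.995). The genes 1700006J14Rik and Ptgs2 had too few counts to test. A further 2 that were lower in Hmga2 nuclei stood higher in COL, Itprid1 at 47.6 and 17.6 against 0 and 0 CPM and Gm43154 at 14.3 and 23.1 against 3.65 and 0.970 CPM. Both reached the minimum in COL alone. Kif19a and Snx22 were called lower in COL (edgeR adjusted p = 0.0458 and 0.0158). Of all 12432 genes that reached the minimum in both groups, 827 were called higher and 1116 lower. Among dividing cell genes, 4 of 4 that reached it in both were called higher (median 2.61, against -0.00506 for all such genes). Mki67 stood at 59.7 and 67.2 CPM against 6.38 and 5.82 CPM (3.39 ± 0.25). Igf2bp2 rose by 1.33 ± 0.34 (17.2 and 20.9 against 9.57 and 5.82 CPM), and Igf2bp3 fell by 1.80 ± 0.37 (8.60 and 19.1 against 36.0 and 67.0 CPM). With the Hmga2 nuclei left out, a fit added after the data were seen, Tnc was at 1.78 (edgeR adjusted p = 0.0086), Mki67 at 3.07 and Igf2bp2 at 0.54 (0.385), and Trabd2b had too few counts to test. DESeq2 did not call Igf2bp2 in the whole class (1.37, adjusted p = 0.165).

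Of 8 genes tied to HMGA2 that reached the minimum in both groups, Cdh2, the adhesion protein N-cadherin, was called at 0.69 and Smad3 at 0.60, and 0 fell. The Smad3 call was lost by DESeq2 (adjusted p = 0.204) and with committed precursors or Hmga2 nuclei left out (edgeR adjusted p = 0.122 and 0.111), and the Cdh2 call was lost with marker-score classes and without NS replicate 1 (0.0542 and 0.138). The other 6 tested, Vim, Cdkn1a and Tgfbr2 among them, reached it in COL alone. The committed precursor markers split, as 9630013A20Rik fell by 1.62 ± 0.16, Bcas1 rose by 0.72 ± 0.16 and 4 of the 6 did not pass. With committed precursors left out, 9630013A20Rik was at -0.11 (edgeR adjusted p = 0.815). Of 5 OPC markers Lhfpl3 was called at 0.58 ± 0.17, a call lost with the replicate block (0.58, edgeR adjusted p = 0.129), with RLE scaling (0.0597) and with committed precursors left out (0.0997), and Cspg4 fell by 0.62 ± 0.13, with Vcan at 0.46 ± 0.15 and Pdgfra at -0.32 ± 0.13 (edgeR adjusted p = 0.0594 and 0.123). With marker-score classes Cspg4 was at -0.23, Meg3 at 0.18, Syt1 at 0.03, Mbp at -0.34 and Mag at -0.72, none of them called (edgeR adjusted p from 0.0687 to 0.917). Of 5 astrocyte markers that reached the minimum in both groups, Slc6a11 fell by 1.45 ± 0.21 and Gja1 was called at -1.36 ± 0.42, a call lost by DESeq2 (adjusted p = 0.313), with doublets removed, with committed precursors left out and without COL replicate 1, NS replicate 1 or NS replicate 2 (edgeR adjusted p from 0.0585 to 0.174). Gfap, which reached it in COL alone, stood at 18.4 and 12.9 against 0.456 and 0.970 CPM, and Agt, which reached it in NS alone, at 1.15 and 4.04 against 21.9 and 20.9 CPM. Of 6 neuronal markers Meg3 was called at 0.91 ± 0.15 and Syt1 at 0.69 ± 0.15, and Stmn2 at -0.96 ± 0.24, which DESeq2 did not call (adjusted p = 0.0698). Of 7 oligodendrocyte markers Mag was called at -0.83 ± 0.22 and Mbp at -0.61 ± 0.14, and both calls were lost with committed precursors left out (-0.53 and -0.05, edgeR adjusted p = 0.183 and 0.897). Of 4 microglial markers that reached the minimum in both groups, P2ry12 was called at -1.21, a call lost with marker-score classes (-0.77, edgeR adjusted p = 0.105). Siglech, which reached it in COL alone, stood at 17.2 and 8.81 against 4.56 and 2.43 CPM. DESeq2 called 1 astrocyte marker higher and 2 lower, and 0 of the 5 microglial markers. The calls of Bcas1, Lhfpl3, Cspg4, Meg3, Syt1 and Mbp were also lost without either NS library, while their log2 fold changes kept direction. The groups also differed in which cluster held the class and in depth, and the part of these or of other cell types' RNA in the differences was not tested. Without NS replicate 2 the calls fell to 677 higher and 690 lower.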

How the data were processed

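Per the labels and the study's methods, the authors aligned reads to mm10 with Cell Ranger 1.2.0 and deposited raw UMI counts for each gene in each nuclear barcode. Use of introns or strand in counting is not given in the sources used here. Nuclei with more than 50 genes and under 5% mitochondrial UMIs were kept (41 of 32332 barcodes removed, none an Hmga2 nucleus) and clustered in Seurat 5.3.0 (R 4.3.3) on 5000 variable genes without Hmga2, 15 principal components and resolution 0.8. Clusters were named from marker lists, needing 3 or more markers each detected in 10% of nuclei, by a scoring rule set after the clusters were seen. A cluster with 50% or more doublets was called mixed. Doublets were called per library by their nearest simulated doublets at 0.8% per 1000 nuclei (4.74% to 8.34%) and kept.

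Counts were summed per library and tested with edgeR 4.0.16 (quasi-likelihood, TMM, filterByExpr, Benjamini-Hochberg, 0.05), with DESeq2 1.42.0 as an alternative, whose missing adjusted p-values stayed missing. Intervals are 95% and zeros are read against 3 counts. Scripts were tested on simulated data. Libraries are separate in the labels but their mice are pooled, so p-values of COL against NS measure the spread between libraries. Within COL the library was a block, so p-values measure how the difference varied over 2 libraries, with a spread shared across genes. Named genes are the 10 with the largest log2 fold change each way among calls of the same direction in both libraries, with listed members that were called or had the highest level, and a few uncalled members (such as Pdgfra, Lin28b and Bub1) named for their role after their values were seen. The members and lists were chosen with earlier results of these data known. Alternatives covered the UMI threshold, clustering, class, doublets, scaling, filter, tool, depth and each library. The microRNA and transcript sequences came from RefSeq (GRCm38.p6) and GENCODE M21.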

Additional observations from a re-analysis of the deposited data

How the results depend on the processing

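The difference between COL and NS in the share of Hmga2 nuclei (0.615 percentage points, mean of COL minus mean of NS) was positive under every alternative run, at 3.51 with 1 or more UMIs, 0.485 with 5 or more, 0.376 after thinning to 2000 UMIs and 0.584 to 0.646 with each library left out. In the OPC lineage (9.33 points) it was 14.3 with 1 or more UMIs, 7.45 with 5 or more, 5.65 after thinning, 6.68 with classes from the marker score, 8.64 with 30 principal components, 8.98 with Hmga2 kept among the variable genes and 11.1 with committed precursors left out, and 9.18 to 9.48 with each library left out. The difference in level (433.9 CPM) was 279.6 with marker-score classes, 526.8 without committed precursors and 416.9 to 450.9 with each library left out. With 1 or more UMIs the OPC lineage held 19.3% of such nuclei in place of 59.1%.

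Between Hmga2 nuclei and the rest 1189 genes were called by edgeR. Counted anew, not as subsets of these, the calls were 230 by DESeq2, 750 at resolution 1.2, 247 after thinning, 440 with 1 or more UMIs (where NS replicate 1 also entered), 708 with 5 or more and 715 with 10 or more. Leaving out a COL library leaves 1 and no test. Reversed log2 fold changes, with edgeR adjusted p where there was a test, were Celf4 -1.07 (0.000256) with marker-score classes and -0.18 (0.770) with doublets removed, Cspg4 0.071, Pdgfra 0.41 and Vcan 0.085 with marker-score classes, Enpp6 0.018 without committed precursors, Mobp 0.017 and Mog 0.35 after thinning, and Pdgfra 0.051 without COL replicate 1. Without COL replicate 2 Pdgfra kept its sign, at -0.53. For COL against NS in the OPC lineage (2398 calls) DESeq2 gave 995, each library left out gave 1367 to 3570, and Pdgfra was at 0.082 with marker-score classes. The settings with committed precursors, the largest nucleus or Hmga2 nuclei left out, and with 10 or more UMIs, were chosen after seeing the data.

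The replicate block for COL against NS gave 2730 calls (1167 higher and 1563 lower). Libraries share only a number in the labels, and the deviations of same-numbered libraries correlated at 0.104 over 13372 genes with only 2 pairs, so they were not treated as paired. Without NS replicate 1 the calls were 625 higher and 982 lower. With 2 pooled libraries per group, no spread between mice and 1 residual degree of freedom, genes of few UMIs limit the comparison within COL.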

Other observations

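The genes that differed in the OPC lineage were also read in the 15 astrocytes of COL with 3 or more Hmga2 UMIs, 9 and 6 per library, which are too few for a test. Tnc stood at 365 and 431 CPM in these nuclei, against 40.6 and 68.4 CPM in astrocytes with no Hmga2 UMI. Trabd2b stood at 931 and 1610 CPM against 28.9 and 23.0 CPM, and Arhgap28 at 126 and 43.1 CPM against 3.61 and 8.98 CPM. Of the 10 genes with the largest increases 5 had enough counts to read, and these 3 were higher in both libraries. The other 2, Adamts14 (0 and 115 against 3.61 and 3.93 CPM) and 8030451A03Rik (0 and 71.9 against 3.61 and 12.9 CPM), were higher in 1 library. Among the genes not read, AL805899.1, Aldh1a3 and Ptgs2 had 0 UMIs in these astrocytes of both libraries, and 1700006J14Rik had 1 and 5. Of the 10 genes with the largest decreases 6 could be read and 2 were lower in both libraries. Of 527 genes called higher in the OPC lineage that had enough counts to read, 261 (49.5%) were higher in both astrocyte comparisons, against 28.5% of all 9577 genes read. Of 552 called lower, 333 (60.3%) were lower in both, against 31.3%. These calls include genes that reached the count minimum on a single side. The Hmga2 astrocytes were also deeper, with median totals of 8442 and 10171 UMIs against 5506 and 6422 in those with no Hmga2 UMI. The part of depth in these shares was not tested.

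Over 89 sums of a cluster in a library, the genes whose log2(CPM + 1) was most like that of Hmga2 by Pearson's r among 19294 genes were Camsap2 (0.64), Scfd2 (0.63), Usp24 (0.62), Brip1 (0.61), Lcn2 (0.60), C4b (0.60), Trib1 (0.59), Fyn (0.59), Ccnf (0.59) and Tnc (0.58). These points share libraries and depth, and the values are a description.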
